A study of Mus musculus with 2 samples.

Results

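The Cxcl12 chemokine axis was described here as 4 genes chosen by name: the ligand Cxcl12, its receptors Cxcr4 and Ackr3, and the related ligand Cxcl14. These are 4 of the 43346 Ensembl genes in the deposited tables. The tissue was limb of B6NCrl mouse embryos at 13.5 days of gestation with both sexes pooled, and total RNA above 200 nt was sequenced. The labels give a single group of 2 libraries, called biological replicate 1 and 2, whose tissue samples differ but share a donor entry, each made from 10 ng of RNA with ERCC spike-ins. They record no mutation, transgene or treatment and do not say whether fore- or hindlimbs were taken. Replicate 1 held 31252996 expected counts (estimated reads) on Ensembl genes and replicate 2 held 42301381. With 1 group there is no comparison between conditions. The questions are how high each gene stood, how the genes stood to each other, which transcripts carried them, and how far the 2 libraries differed. Limb mesenchyme genes, which include the limb genes Tbx5 and Pitx1, reached 1 TPM (a level per transcript length) in both libraries in 7 of 7 cases, with Msx1, Prrx1 and Pdgfra highest. So did 61.0% of protein-coding genes, and the lists for endothelium, pericytes and ectoderm were as fully present, so the count is not particular to limb mesenchyme. In whole tissue, fewer cells of a type and less RNA per cell cannot be told apart.

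Chemokines are small secreted proteins that direct the migration of cells by binding receptors that span the membrane. Cxcl12 acts through Cxcr4, which couples to inhibitory G proteins, and guides blood cell precursors, endothelium, and the muscle precursors that enter the limb bud. Ackr3 binds the same ligand without coupling to G proteins, recruits arrestins, and removes Cxcl12 from the surroundings of the cell. Cxcl14 is a conserved chemokine of epithelia and connective tissue whose receptor is not settled.

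The coding sequences show what sets the members apart, and they are given first because the transcript results turn on them. All are read 5′ to 3′ from GENCODE M21 transcripts on GRCm38 (the assembly of mm10). The coding forms of Cxcl12 share their first 89 codons. The following lines give the last 30 bases before the forms part in lower case and the rest, up to and including the stop codon, in capitals. The first capital is G in each form but comes from a different genome position, so codon 89 reads the same. Cxcl12-202 is the alpha form, Cxcl12-203 the beta form and Cxcl12-201 the gamma form. The capitals lie at chr6:117173579-117173582, chr6:117178583-117178598 and chr6:117176086-117176179, all on the plus strand.
Cxcl12-202: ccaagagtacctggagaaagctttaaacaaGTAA
Cxcl12-203: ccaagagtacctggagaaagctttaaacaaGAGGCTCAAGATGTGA
Cxcl12-201: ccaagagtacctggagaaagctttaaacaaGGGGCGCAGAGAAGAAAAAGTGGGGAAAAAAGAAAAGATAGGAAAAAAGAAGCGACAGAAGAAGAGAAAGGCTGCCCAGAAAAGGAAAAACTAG

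The alpha form ends just after the point where the others are spliced and encodes 89 amino acids. The beta form adds 4 codons and encodes 93. The gamma form adds 30 codons, of which 17 encode lysine or arginine, and encodes 119. This basic tail is known to bind heparan sulfate.

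Both ligands carry the cysteine pair with 1 residue between that names the CXC class, shown here with the cysteine codons in capitals. The cysteines are at codons 30 and 32 of Cxcl12 (chr6:117171496-117171528, plus strand). In Cxcl14 they are at codons 25 and 27, within 99 codons, and the stretch spans an exon junction within chr13:56295903-56296113 on the minus strand.
Cxcl12: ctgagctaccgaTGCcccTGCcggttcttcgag
Cxcl14: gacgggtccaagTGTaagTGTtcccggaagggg

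For the receptors, the codons for Asp, Arg and Tyr that follow the third membrane span, a site of G protein contact in receptors of this family, are in capitals. They begin at codon 135 of 359 in Cxcr4 (chr1:128589500-128589529, minus strand) and at codon 141 of 362 in Ackr3 (chr1:90214232-90214261, plus strand). Cxcr4 has the same 3 residues at 1 further place in its sequence. The stretch after them is where Ackr3 is known to depart from the receptors that couple to G proteins.
Cxcr4: atcagcctgGACCGGTACctcgctattgtc
Ackr3: atgagcgtgGACCGCTATctctccatcacc

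All 4 genes were expressed, with the ligands above the receptors. At least 1 TPM (the deposited level per transcript length, scaled to library size) in both libraries was the threshold of detection. It was met by 4 of 4 members, by 34.6% of all Ensembl genes and by 61.0% of the 21474 protein-coding genes. The order of levels was Cxcl14, Cxcl12, Ackr3 and Cxcr4 in each library.

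Cxcl14 (ENSMUSG00000021508.10, chromosome 13, 56288643 to 56296551, minus strand, mm10) stood at 406.63 TPM in replicate 1 and 474.41 TPM in replicate 2. The mean was 441 ± 47.9 TPM (SD, n = 2), from 14605 and 22631 expected counts. Cxcl14 ranked 279 among protein-coding genes, and 98.7% of them were lower. Replicate 2 was the higher library.

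Cxcl12 (ENSMUSG00000061353.7, chromosome 6, 117168535 to 117181367, plus strand, mm10) stood at 114.13 TPM in replicate 1 and 116.87 TPM in replicate 2. The mean was 116 ± 1.94 TPM (SD, n = 2), from 5355 and 7265 expected counts, and 93.5% of protein-coding genes were lower. The libraries were close, and Cxcl12 lay below Cxcl14 in both.

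Ackr3 (ENSMUSG00000044337.5, chromosome 1, 90203980 to 90216751, plus strand, mm10), the scavenging receptor, stood at 33.6 TPM in replicate 1 and 34.67 TPM in replicate 2. The mean was 34.1 ± 0.757 TPM (SD, n = 2), from 2059 and 2819 expected counts. Of protein-coding genes 78.1% were lower.

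Cxcr4 (ENSMUSG00000045382.6, chromosome 1, 128588199 to 128592293, minus strand, mm10), the signalling receptor, stood at 1.8 TPM in replicate 1 and 1.61 TPM in replicate 2. The mean was 1.71 ± 0.134 TPM (SD, n = 2), and 41.7% of protein-coding genes were lower. Its level rests on 64 and 76 expected counts, with exact 95% Poisson intervals of 49.3 to 81.7 and 59.9 to 95.1 counts, which cover counting error only. Cxcr4 was therefore the least precisely measured member and stood just above the detection threshold.

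**Figure D1:**
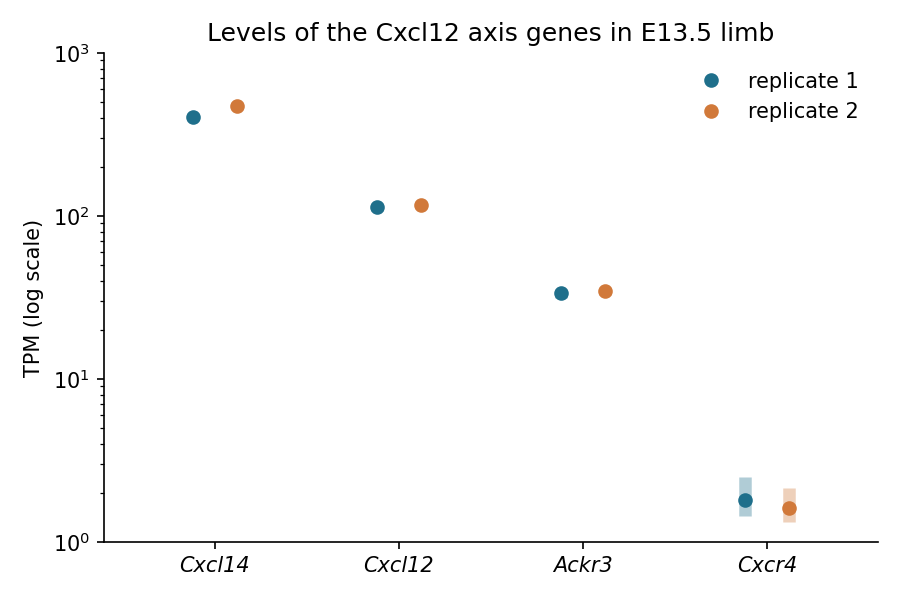
TPM on a log scale for the 4 genes, 1 point per library, with the deposited credibility interval as a pale bar (hidden by the point where narrow). The points fall from Cxcl14 (407 and 474 TPM) to Cxcr4 (1.8 and 1.61 TPM), and the libraries keep the same order.

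Differences in level between the members were larger than the replicate spread in 6 of 6 pairs. The rule was that both libraries give the same sign and that the mean log2 ratio of TPM, with 0.1 added, exceeds 2 times the spread, the replicate SD pooled over 500 genes of like level and combined for both genes. No p-value was computed, since 2 libraries of 1 group allow no exact test that could reach 0.05.

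Between the ligands, Cxcl14 exceeded Cxcl12 by 3.56-fold in replicate 1 and 4.06-fold in replicate 2, a mean log2 ratio of 1.93 ± 0.133 (SD, n = 2) against a spread of 0.09. Between the receptors, Ackr3 exceeded Cxcr4 by 17.7-fold and 20.3-fold, a mean log2 ratio of 4.25 ± 0.139 (SD, n = 2) against a spread of 0.34. The scavenging receptor was thus the more abundant transcript of the pair in both libraries.

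Cxcl12 exceeded Ackr3 by 3.39-fold and 3.36-fold, a mean log2 ratio of 1.76 ± 0.0077 (SD, n = 2) against a spread of 0.12. This SD was the smallest of the 6, but it rests on 2 values and lies far below the spread of genes of like level. Over Cxcr4, Cxcl12 stood 60.1-fold and 68.4-fold higher. For Cxcl14 the mean ratio was 12.8-fold over Ackr3 and 244-fold over Cxcr4. These are ratios of RNA in whole tissue and do not say which cells carried ligand or receptor.

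Among 37 chemokine genes, Cxcl14 and Cxcl12 took the first places. Their sum of TPM was 649 in replicate 1 and 724 in replicate 2, of which Cxcl14 held 64.1% ± 2.07 and Cxcl12 16.9% ± 1.01 (SD, n = 2). Next in order was Ccl27a, a chemokine of skin epithelium, at 43.89 and 53.86 TPM. Its fractional counts (491.25 and 828.23) show reads divided with other sequences, so its level is uncertain. Cxcl12 exceeded Ccl27a by a mean of 2.37-fold and exceeded Pf4, a platelet chemokine also seen in macrophages (41.4 and 33.47 TPM), by 3.10-fold, both past the spread.

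Of 13 further CXC chemokines 4 were detected: Pf4, the platelet chemokine Ppbp (5.53 and 3.39 TPM), the membrane-bound Cxcl16 (2.25 and 3.23 TPM) and the B cell attractant Cxcl13 (1.21 and 1.35 TPM). The median of the 13 was 0.555 TPM. This share of 30.8% lay below the 61.0% of protein-coding genes. Cxcl9 and Cxcl11, ligands of Cxcr3 known from inflammation, were under 0.5 TPM in both libraries, and Cxcl10, of the same group, stood at 1.21 and 0.83 TPM.

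Of 22 chemokines of the other classes 10 were detected (45.5%, against 61.0% of protein-coding genes), with a median of 0.705 TPM. Beside Ccl27a the highest were Ccl25, known from thymus and gut (9.1 and 8.43 TPM), and the membrane-tethered Cx3cl1 (4.74 and 5.15 TPM). No count was assigned to Ccl8, Ccl22, Ccl26 or Xcl1 in either library, which allows up to 0.0940 and 0.0695 CPM (3 counts of the library).

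On the receptor side, Ackr3 was the highest of 23 chemokine receptor genes and held 63.6% ± 2.12 (SD, n = 2) of their summed TPM, which was 54.1 and 53.2. Cxcr4 was at place 5 and held 3.18% ± 0.215 (SD, n = 2). Between them stood Cx3cr1, the fractalkine receptor of macrophages (8.47 and 9.18 TPM), and the inflammatory receptors Ccr1 (2.16 and 1.83 TPM) and Ccr2 (2.27 and 1.67 TPM). Ackr3 exceeded Cx3cr1 by 3.84-fold and Cx3cr1 exceeded Cxcr4 by 4.95-fold, both past the spread.

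Cxcr4 did not differ beyond the spread from its neighbours in that order. Ccr1 was above it by a mean of 1.16-fold and Ccr2 by 1.14-fold. Cxcr4 was above Ackr4, a scavenger of other chemokines (1.02 and 1.08 TPM), by 1.57-fold, against a spread of 0.84 on the log2 scale. The place of Cxcr4 among these 4 genes is therefore not resolved at this depth.

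Of 18 further chemokine receptors, the atypical ones named Ackr left out, 3 were detected (16.7%), namely Cx3cr1, Ccr1 and Ccr2. This share lay below the 61.0% of protein-coding genes, and the list median was 0.165 TPM. Of the 3 further atypical receptors, Ackr4 was the 1 detected. Ackr1, the receptor of red cells and venules, stood at 0.55 and 0.48 TPM, and Ackr2, a scavenger of inflammatory chemokines, at 0.29 and 0.15 TPM.

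**Figure D2:**
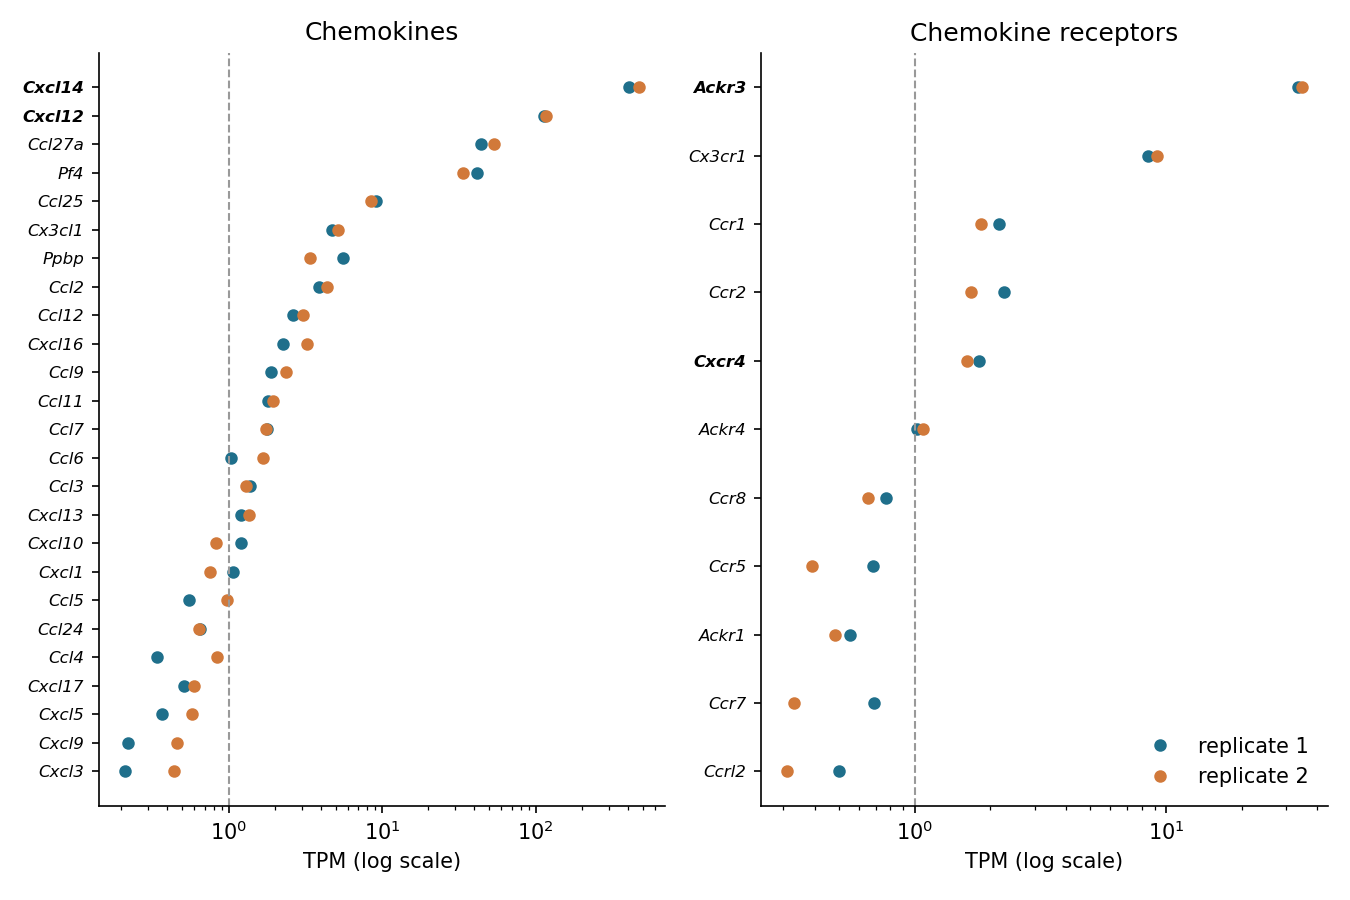
TPM on a log scale for chemokines (left) and chemokine receptors (right) with a mean of at least 0.3 TPM, 1 point per library, members in bold and 1 TPM as a dashed line. Cxcl14 and Cxcl12 lead the ligands, Ackr3 leads the receptors at 33.6 and 34.67 TPM, and Cxcr4 lies among Ccr2, Ccr1 and Ackr4.

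Partners and processing enzymes of Cxcl12 were detected in 6 of 7 cases, a short list set against 61.0% of protein-coding genes. Mmp2, a protease that can cut Cxcl12, stood at 177.1 and 175.82 TPM, and Mmp14, which activates Mmp2, at 156.99 and 161.01 TPM. The peptidase Dpp4, which trims the amino end of Cxcl12 and abolishes its activity on Cxcr4, was below the threshold in replicate 2 (1.08 and 0.57 TPM).

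Hmgb1, which forms a complex with Cxcl12, stood at 1501.85 and 1401.87 TPM, and Mif, a further ligand of Cxcr4, at 1421.04 and 1376.33 TPM. Fractional counts show that reads of both were divided with other sequences. Cd74, the other receptor of Mif, stood at 5.83 and 6.32 TPM.

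Further peptides that Ackr3 removes, and the receptor of adrenomedullin, were detected in 5 of 5 cases. The list is short, and 61.0% of protein-coding genes met the same threshold. Penk, the precursor of enkephalins, which Ackr3 binds, stood at 96.55 and 95.67 TPM. It was below Cxcl12 by a mean of 1.20-fold and above Ackr3 by 2.81-fold, both past the spread. Fractional counts (2380.94 and 3099.8) show that reads of Penk were divided with other sequences. The spread between libraries does not cover this, so the small difference from Cxcl12 is uncertain. Adm, the precursor of adrenomedullin, stood at 2.4 and 2.56 TPM, with its receptor parts Calcrl at 13.36 and 14.43 TPM and Ramp2 at 62.16 and 60.92 TPM. The counts of Ramp2 were fractional too (859.84 and 1172.59).

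Components downstream of the receptors were detected in 20 of 22 cases (90.9%), against 61.0% of protein-coding genes, with a median of 18.6 TPM. The highest were Cdc42, a regulator of cell polarity (620.48 and 630.7 TPM), the G protein subunit Gnb1 (442.74 and 421.72 TPM) and the inhibitory subunit Gnai2 (324.39 and 318.09 TPM). Most of these genes serve many receptors.

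Of the arrestins, which bind Ackr3 and Cxcr4 after activation, Arrb2 stood at 20 and 18.98 TPM and Arrb1 at 5.08 and 5.68 TPM. The receptor kinases ran from Grk6 (38.82 and 37.75 TPM) to Grk5 (1.49 and 1.72 TPM). Itch, a ubiquitin ligase that sends Cxcr4 to degradation, stood at 56.47 and 58.53 TPM. Below the threshold were Pik3cb (0.96 and 0.84 TPM) and the leukocyte gene Dock2 (0.88 and 1.05 TPM).

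Markers of cell types known to carry Cxcr4 are given against the 61.0% of protein-coding genes that met the threshold. Endothelial genes were present in 8 of 8 cases (median 18.5 TPM), and the vessel cadherin Cdh5 stood at 21.97 and 21.25 TPM. Of 8 genes of blood and macrophages 7 were detected, and the leukocyte gene Ptprc stood at 1.86 and 1.75 TPM. Of 8 muscle genes 6 were detected, a share of 75% that is not far from that background. The genes of migrating precursors, Pax3 (0.92 and 0.8 TPM) and Lbx1 (1.27 and 1.2 TPM), were lower than the differentiation factor Myog (141.59 and 157.89 TPM). Cxcr4, at 1.8 and 1.61 TPM, lay below the list medians of 18.5 TPM for endothelium, 11.03 TPM for muscle and 6.57 TPM for blood and macrophages. Of 6 genes of Schwann precursors and melanoblasts 5 were detected. Which cells carried Cxcr4 was not tested.

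The tables list more than 1 transcript for Cxcl12, Cxcr4 and Ackr3. In 3 of 3 genes the same transcript led in both libraries. Over all detected genes with 2 or more transcripts this held for 91.5%, so the count is near the background. Shares are given as IsoPct, the deposited percent of a gene's TPM that a transcript holds.

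By the deposited shares, Cxcl12 was carried mainly by its alpha form. Cxcl12-202 held 64.61% in replicate 1 and 65.37% in replicate 2, a mean of 65.0% ± 0.537 (SD, n = 2), or 73.74 and 76.4 TPM. The beta form Cxcl12-203, whose short tail is shown above, held 25.61% and 24.01%, a mean of 24.8% ± 1.13 (SD, n = 2), or 29.23 and 28.05 TPM. Alpha exceeded beta by 2.52-fold and 2.72-fold in TPM.

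The gamma form Cxcl12-201, with the long basic tail, was the lowest of the 4 annotated transcripts. It held 1.92% and 2.14%, a mean of 2.03% ± 0.156 (SD, n = 2), or 2.2 and 2.5 TPM. Beta exceeded gamma by 13.3-fold and 11.2-fold in TPM. The fourth transcript, Cxcl12-204, is annotated as a retained intron with no coding sequence and held 7.86% and 8.48%, or 8.97 and 9.91 TPM. Of the coding forms alone, alpha made up 70.8%, beta 27.0% and gamma 2.21% of TPM in the mean.

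The 2 libraries differed by 0.76 percentage points for alpha, 1.6 for beta, 0.62 for the retained intron and 0.22 for gamma. For 24410 transcripts of genes with 1000 to 20000 counts that held 1 to 99% of their gene, the median difference was 1.46 points and the 90th percentile 6.03. The order of the forms was the same in both libraries, and the differences between forms were larger than those between libraries.

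**Figure D3:**
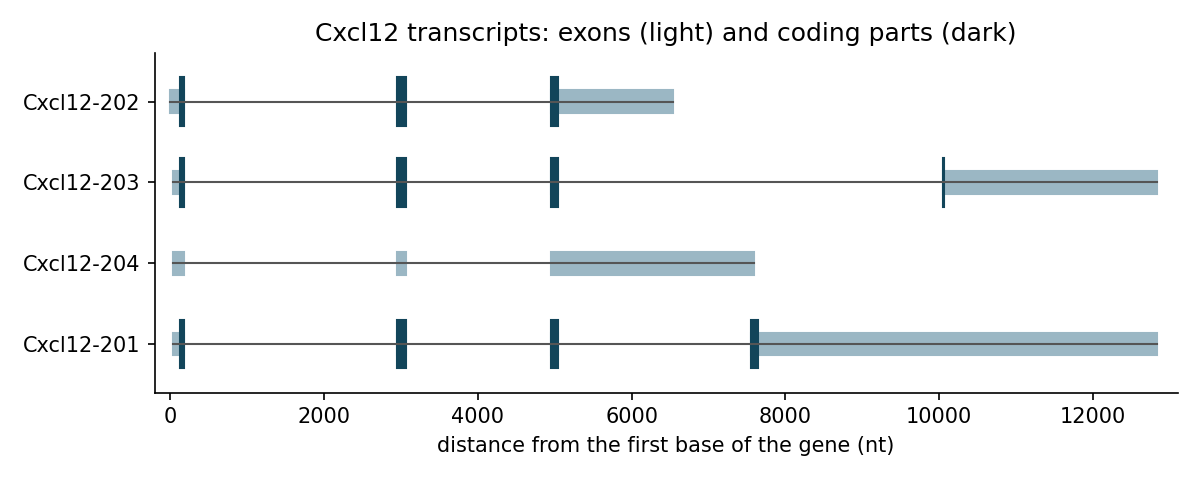
Exons (light) and coding parts (dark) of the 4 Cxcl12 transcripts, by distance in nt from the first base of the gene. The first 3 coding parts are shared by the coding forms, and alpha (Cxcl12-202), beta (Cxcl12-203) and gamma (Cxcl12-201) differ at the 3′ end.

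How firmly reads separate these forms differs. By position, gamma has 2456 bases that no other Cxcl12 transcript of the tables holds, the retained intron 1016 and alpha 39, all at its 5′ end. Beta has 0, because its last exon lies wholly within that of gamma, so only a read across its own splice junction belongs to beta alone. Its estimate was nonetheless not the least certain. The deposited posterior SD of the count was 35.2 on 2733.21 counts for alpha and 17.6 on 1846.72 for beta in replicate 1. For the retained intron it was 33.9 on 522.06 and for gamma 14 on 253.01. Past base 117173578 the last exon of alpha lies within an intron of beta and gamma. In total RNA, unspliced reads from that stretch could not be told apart from alpha or the retained intron. The last exon of gamma begins at base 117176086, and before base 117178583 it also lies within an intron of beta. Most of the bases found in gamma alone lie there. Unspliced reads from that part could likewise not be told apart from gamma. Their part in the shares was not tested.

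Division by length moves the shares, since alpha is 1878 nt long, beta 3132, the retained intron 2894 and gamma 5627. Of expected counts, alpha held 51.0% in replicate 1 and 51.8% in replicate 2, and beta 34.5% and 32.4%. Gamma held 4.72% and 5.27% of expected counts. The order of the 4 forms stayed the same under both measures.

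**Figure D4:**
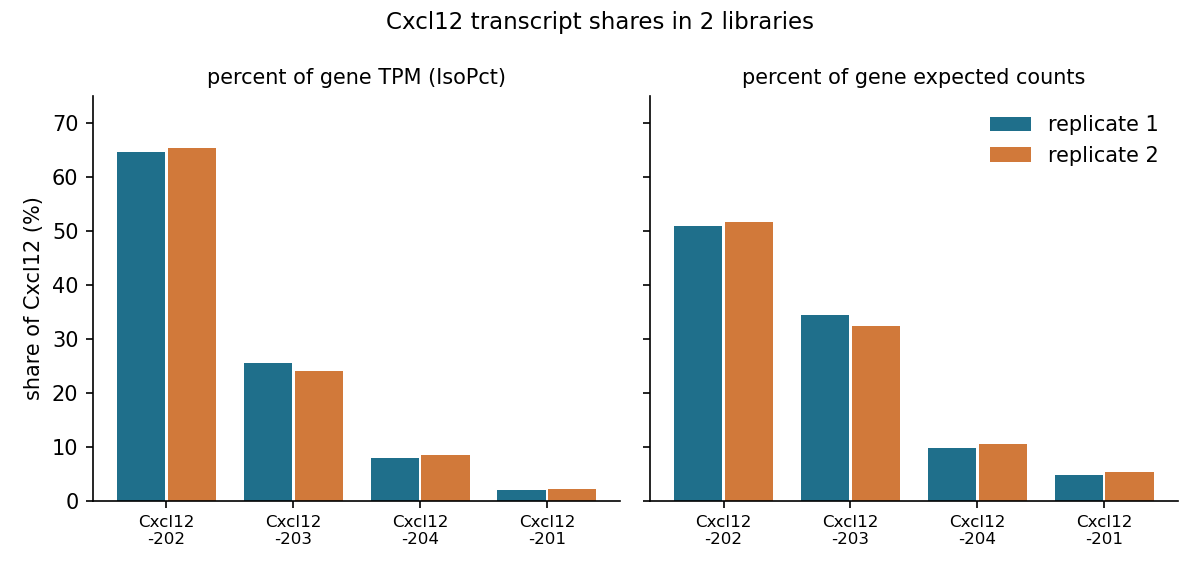
Share of Cxcl12 held by each transcript, as percent of TPM (left) and of expected counts (right), bars for the 2 libraries starting at 0. Alpha (Cxcl12-202) leads in both panels, with 64.61% and 65.37% of TPM, and gamma (Cxcl12-201) is lowest.

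For Cxcr4 the tables assign every read to Cxcr4-201 (100% in both libraries), which encodes 359 amino acids. The other annotated form, Cxcr4-202, received 0 counts. It starts with fewer bases of the first exon, as shown here from the start codon with the bases of that exon in capitals. The first exon's coding part ends at chr1:128592189 in one form and at chr1:128592195 in the other, both on the minus strand.
Cxcr4-201: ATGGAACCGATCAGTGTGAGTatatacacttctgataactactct
Cxcr4-202: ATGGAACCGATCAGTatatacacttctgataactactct

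Cxcr4-202 is also annotated as shorter, at 902 nt against 1805 for Cxcr4-201. Its annotated coding part, 272.667 codons, is not a whole number of codons and so is incomplete. Positions found in Cxcr4-202 alone amount to 3 bases. Only reads over these bases or across the first junction could be assigned to it alone. The posterior mean share, a further deposited estimate, gave Cxcr4-202 15.4% in replicate 1 and 11.5% in replicate 2. On 64 and 76 reads, a minor share of this form was not resolved at this depth.

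Ackr3 was carried by Ackr3-201, which held 99.06% and 98.97% of its TPM. Ackr3-202 is annotated as a short form of 404 nt with 283 bases found in it alone. Its annotated coding part, 4.33 codons, is not a whole number of codons and so is incomplete. This form received 2 counts in replicate 1 and 3 in replicate 2. The exact 95% Poisson intervals are 0.242 to 7.22 and 0.619 to 8.77 counts. Its share was 0.94% and 1.03%.

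Cxcl14 had a single transcript in the tables, Cxcl14-201, at 100%. The later annotation GENCODE M21 lists a second form that skips an exon, Cxcl14-202, which the tables do not list, so reads of that form could not be told apart. No gene of that annotation overlapped any of the 4 members.

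Between the libraries Cxcl12 and Ackr3 differed by less than most genes of like count, Cxcr4 by about as much, and Cxcl14 by more than most. Of 500 genes of like count, 8.8% had a smaller ratio in either direction than Cxcl12, 20.4% than Ackr3 and 40.8% than Cxcr4. None of the 4 members was over 2-fold apart between the libraries, and 1.27% of the 17441 genes that reached 10 counts in both were. After TMM scaling, a correction for library size and composition, the log2 ratio of replicate 2 to replicate 1 was 0.01 for Cxcl12, 0.02 for Ackr3 and -0.18 for Cxcr4. The SD of this ratio for 500 genes of like count was 0.08, 0.09 and 0.46, so these 3 ratios lay within the spread. For Cxcr4 the ratio was about as large as that of Cxcl14 in the other direction, and at its low counts a difference of this size was not resolved.

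For Cxcl14 the log2 ratio was 0.20, or 1.15-fold higher in replicate 2, where genes of like count had an SD of 0.08. Of those 500 genes 98.2% had a smaller ratio in either direction. Counting error for Cxcl14 alone is 0.015 on this scale. The deposited intervals of TPM, which cover quantification within a library and not the difference between tissue samples, were 389 to 402 in replicate 1 and 459 to 471 in replicate 2. In each library the deposited TPM itself lay above its interval.

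The cell type lists are set beside this ratio by the number of genes with a higher value in replicate 2. Ectoderm genes were higher in 6 of 6 cases, with log2 ratios of 0.13 to 0.27, and their summed TPM was 596 in replicate 1 and 681 in replicate 2. Pericyte genes were higher in 6 of 6 cases, at 0.09 to 0.40, with sums of 72.5 and 83.2. Limb mesenchyme genes were higher in 4 of 7 cases, at -0.34 to 0.51, with sums of 688 and 761. Within that list the forelimb gene Tbx5 stood at 25.22 and 36.54 TPM (log2 ratio 0.51). The hindlimb gene Pitx1 stood at 90.38 and 73.82 TPM (-0.34). Genes of Schwann precursors and melanoblasts were higher in 4 of 6 cases (median 0.17, sums of 49.8 and 57.3) and muscle genes in 4 of 8 (median 0.03, sums of 253 and 280). Endothelial genes were higher in 3 of 8 cases (median -0.04, sums of 197 and 198) and those of blood and macrophages in 5 of 8 (median 0.04, sums of 88.6 and 92.1). Over the 17441 genes 49.9% were higher in replicate 2, with a median of -0.0002. The part of these cell types, or of the limbs sampled, in the ratio of Cxcl14 was not tested.

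**Figure D5:**
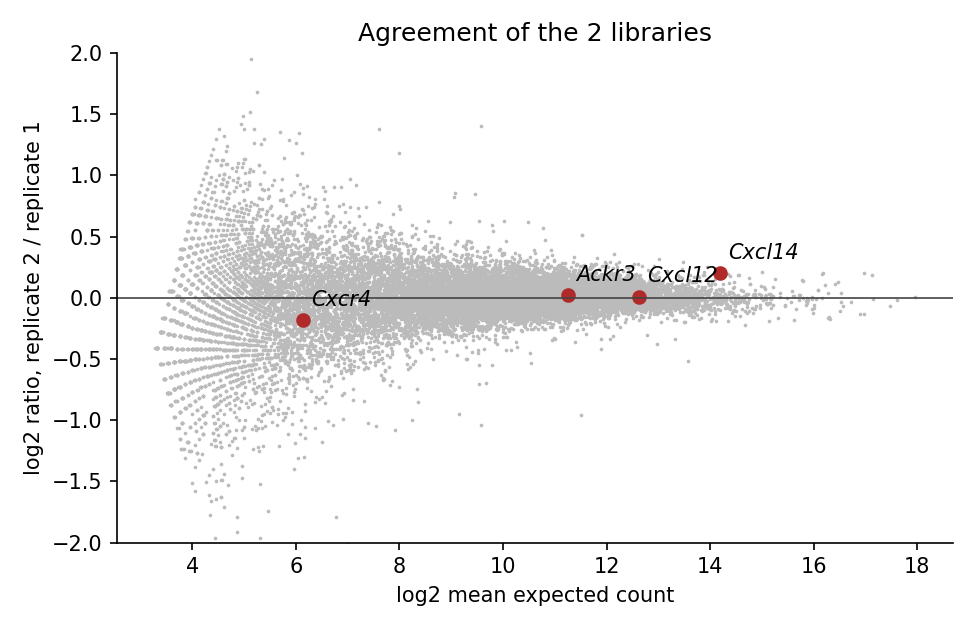
Log2 ratio of replicate 2 to replicate 1 against the log2 mean expected count for 17441 genes (grey), with the 4 members in red. The axis is limited to 2 in either direction and leaves out 18 genes. Cxcl12 and Ackr3 lie at the zero line, Cxcl14 lies above it at 0.20, and Cxcr4 lies below it at -0.18 where the cloud is wide.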

How the data were processed

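For each library 1 gene table and 1 transcript table were used, with GENCODE M4 on mm10 according to the deposited text files. Not given in the sources used here are aligner, quantifier and strand setting. The deposited expected counts are estimates that need not be whole. The deposited TPM and FPKM scale them by effective length, and the deposited IsoPct is a percent of the gene's TPM, per the file headers.

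Symbols were matched to 42462 of 43346 genes, and a symbol with 2 identifiers was read from that with the higher count. Expected counts were rounded for TMM scaling with edgeR 4.0.16 (genes reaching 10 counts in both libraries) and for DESeq2 1.42.0 size factors under R 4.3.3, without spike-ins, and log2 ratios between libraries used 0.5 added counts. Other steps used Python 3.11.15, numpy 2.4.6, pandas 2.3.3, scipy 1.17.1 and Biopython 1.88. The scaling and ratio steps were tested on simulated data. Positions and sequences came from GENCODE M21, whose Cxcl14-201 is 1827 nt long against 1823 in the tables.

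The members and gene lists were chosen with earlier results of these data known. Named genes were the 4 members and the 3 highest detected genes of each list, with further ones named after their values were seen. Cell type lists are given by count and by the genes that bear on a member. The SD covers the spread between 2 libraries only. No likeness of pattern across conditions was computed, since the labels give 1 group.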

Additional observations from a re-analysis of the deposited data

How the results depend on the processing

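Of the values recomputed under other settings, 118 stayed within their limits and 21 did not, and no ratio changed sign. The 118 include entries that could not move. Leaving out 1 library cannot shift a level or a transcript share past the SD of both libraries, which was its limit. Those entries say nothing on robustness. The 6 ratios of member pairs stayed past the spread, which was their only limit, but their size moved. With expected counts, not divided by length, the mean log2 ratio of Ackr3 over Cxcr4 was 5.11 against 4.25. That of Cxcl14 over Ackr3 was 2.92 against 3.68. The 4 library ratios moved by less than the spread of genes of like count under each scaling tried. Posterior mean TPM gave 113 for Cxcl12 and 1.85 for Cxcr4. As shares of expected counts, Cxcl12-202 held 51.4%, Cxcl12-203 33.4%, Cxcl12-204 10.2%, Cxcl12-201 5.0%, Ackr3-201 99.9% and Ackr3-202 0.102%, since counts are not divided by length. Posterior mean shares were 86.6% for Cxcr4-201, 13.4% for Cxcr4-202, 98.6% for Ackr3-201 and 1.38% for Ackr3-202, and the cause was not tested. Counts of detected genes followed the threshold. For the further CXC chemokines they were 7 at 0.5 TPM, 1 at 5 TPM and 8 at 10 expected counts. At 5 TPM there were 2 other chemokines, 1 further chemokine receptor, 0 atypical receptors and 3 of the Ackr3 peptide and adrenomedullin genes. At 10 expected counts there were 8 further receptors and 3 atypical receptors. Cxcr4, at 64 and 76 counts, is the member limited by depth. No paired analysis was possible because the labels give 1 group and no second group shares its replicate numbers.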

Other observations

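Some genes of blood cells had lower values in replicate 2, and those given here were picked for it after the values were seen, so they support no direction. The platelet chemokine Ppbp had a log2 ratio of -0.72 and Pf4 of -0.33. Itga2b, the platelet integrin, stood at 5.12 and 3.68 TPM (-0.49), and Gata1, a transcription factor of red cells and megakaryocytes, at 1.56 and 0.88 TPM (-1.02). Genes of other blood lineages were lower too, such as the red cell anion exchanger Slc4a1 (-0.70) and the myeloid peroxidase Mpo (-1.31). Of the list of 8 genes of blood and macrophages, 5 were higher in replicate 2, with a median log2 ratio of 0.04.

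Further chemokine receptors reaching 10 counts in both libraries were higher in replicate 2 in 1 of 8 cases, with a median log2 ratio of -0.29 and a range of -1.07 to 0.07. Over all 17441 genes that reached 10 counts, 49.9% were higher. The counts of these 8 receptors ran from 10 for Ccr9 to 810 for Cx3cr1, and none of these ratios was tested. Listed receptors under 10 counts in a library went both ways, for example Cxcr5 at 1.53 and Ccr6 at -2.99. The 1 of 8 therefore holds only for the receptors that passed this limit.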
